A study of Mus musculus with 27 samples.

Results

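The cytosolic ribosomal protein genes encode the protein shell of the ribosome that translates messenger RNA in the cytoplasm. They were taken from the deposited gene table by their symbols, namely Rps and Rpl followed by a number, Rpsa, Rplp0, Rplp1, Rplp2 and the named paralogues such as Rpl22l1 and Rps27l, with pseudogenes and the Rps6k kinases left out. This rule found 84 of 59489 entries, 32 of them named for the small subunit and 52 for the large subunit. In 6 of them the annotation merges the gene with a neighbour or copy, as in Rpl13a // Flt3l and Rps27 // Rps27rt. Fau, Rack1 and Rps3a1 also encode ribosomal proteins but carry other symbols, so they are given apart.

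The series holds 27 libraries of polyadenylated RNA from wild-type mouse primary cortical cells, taken at embryonic day 16.5 and kept for 14 days in culture. All cells carried an inhibitor of transcription. In 18 libraries this was triptolide (1 µM, 3 h), which stops transcription as it starts, and cells were given bicuculline (20 µM, 1 h) or left unstimulated, with RNA from nucleus, cytosol or whole cells. In 9 libraries it was DRB (50 µM, 2 h), which stops polymerases from elongating, and cells were given BDNF (50 ng/mL, 1 h), bicuculline (20 µM, 1 h) or nothing. Bicuculline is an antagonist of inhibitory GABA-A receptors and increases firing, and BDNF is a growth factor that acts through the receptor TrkB. Each of the 9 groups has 3 libraries. There is no group without an inhibitor, so every level was measured after hours with an inhibitor of transcription. How completely transcription was blocked was not measured, and immediate early genes rose with both stimuli under DRB, as given below. The text of the series places its question in retained introns, and the table gives 1 value per gene, so intron retention is not analysed here.

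Ribosomal protein mRNAs are among the most abundant and most stable messages of a cell, and most of their products are needed in equal amounts. Their transcripts start with a run of pyrimidines (the terminal oligopyrimidine or TOP motif), through which the mTOR pathway and the protein LARP1 control their translation and stability. In neurons they are also carried into dendrites and axons. The genes are short, have compact introns that often hold small nucleolar RNAs, and have left many processed pseudogenes in the mouse genome, copies of the mRNA that share long identical stretches with the parent gene.

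Depth was read from the steps of low values, in the same way in both experiments, and is known only up to a factor of 2. It came to 67600000 to 89300000 fragments per library under triptolide, and 55400000 to 106500000 under DRB. All 8 neuronal and all 6 astrocyte markers reached a mean FPKM of 1 in every group, with sums of 1199.6 to 2041 FPKM and 493 to 821 FPKM per library. Of 6 oligodendrocyte markers 5 or 6 did, with sums of 45.0 to 206 FPKM. Of 6 microglial markers 3 did under triptolide and 1 under DRB, with sums of 2.36 to 9.78 FPKM, and of 6 vascular and mesenchymal markers 0 or 1 did, with sums of 1.24 to 3.47 FPKM. Nuclear noncoding RNAs such as Meg3 and Miat made up 0.381% ± 0.152 of summed FPKM in bicuculline nuclei and 0.0642% ± 0.0072 in bicuculline cytosol, and 0.364% ± 0.0139 in unstimulated nuclei and 0.0570% ± 0.00427 in unstimulated cytosol (SD, n = 3 each). Mitochondrially encoded RNA was not lower in nuclei, at 11.5% ± 1.04 in unstimulated nuclei and 10.6% ± 1.46 in unstimulated cytosol. With bicuculline it made up 10.4% ± 1.18 in nuclei and 9.20% ± 0.272 in cytosol (SD, n = 3 each). How much cytoplasmic RNA the nuclear libraries hold was not tested. Nothing says that same-group libraries came from separate cultures, so p-values measure the spread between these libraries. In bulk RNA, fewer cells of a type and less RNA per cell cannot be told apart.

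Levels of the ribosomal protein genes differed widely. In unstimulated whole cells under triptolide, the median member stood at 52.5 FPKM, 75 of 84 members were above 10 FPKM and 24 were above 100 FPKM. The 5 highest were Rplp1, a stalk protein that helps recruit elongation factors, at 632 ± 70.7 FPKM, Rpl41, the smallest protein of the ribosome, at 410.1 ± 9.73 FPKM, Rplp0, the base of the stalk, at 322 ± 30.9 FPKM, Rps15 at 302 ± 32.3 FPKM and Rps3, which lines the mRNA entry channel, at 284 ± 22.8 FPKM (SD, n = 3 each). Rplp1 lay above Rpl41 in all 3 libraries, and the libraries of Rplp0, Rps15 and Rps3 overlapped. FPKM is a value per length, so such levels can be set side by side, although the shared sequences described below limit it. The whole class made up 1.93% ± 0.141 of summed FPKM in those cells and 1.78% ± 0.0249 in unstimulated cells under DRB.

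The 5 lowest members were all paralogues. Rpl39l was listed at 0.0218 ± 0.0254 FPKM, Rpl10l at 0.0531 ± 0.0417 FPKM, Rpl3l at 0.202 ± 0.0283 FPKM, Rps4l at 0.959 ± 0.328 FPKM and Rpl32l at 1.68 ± 0.294 FPKM (SD, n = 3 each, unstimulated whole cells under triptolide). Rpl39l and Rpl10l are known from the male germ line and Rpl3l from heart and skeletal muscle. These 3 did not reach 1 FPKM in 3 libraries of either experiment and were not tested, which left 81 members in each. Their partners were all present, with Rpl39 at 183 ± 11.5 FPKM, Rpl10 at 18.1 ± 3.59 FPKM and Rpl3 at 11.0 ± 0.264 FPKM in the same cells. In the pairs of which both members are used widely, Rpl22 stood at 38.7 ± 2.32 FPKM beside Rpl22l1 at 19.5 ± 0.981 FPKM, and Rps27 at 28.2 ± 2.11 FPKM beside Rps27l, a p53 target, at 19.4 ± 0.367 FPKM. Rpl36a at 7.75 ± 1.04 FPKM and the merged entry of Rpl36al at 8.74 ± 0.362 FPKM overlapped in their libraries, and Rps4x stood at 173 ± 7.52 FPKM. Not all of these orders held in unstimulated cells under DRB. There Rps27 stood at 3.33 ± 0.327 FPKM, below Rps27l at 21.9 ± 2.01 FPKM. Rpl36a at 5.26 ± 0.330 FPKM lay below Rpl36al at 8.02 ± 0.729 FPKM without overlap. Rpl22 at 58.4 ± 4.09 FPKM again lay above Rpl22l1 at 21.2 ± 1.31 FPKM.

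How far a read can be assigned to such a gene depends on its copies. Of the 82 members matched to the GENCODE M21 annotation, 79 shared at least 1 stretch of 50 coding bases with another locus, and all 79 shared one with an annotated pseudogene. The median member shared such stretches with 9 other loci, and Rpl7a with 123. Counted over stretches of 100 bases, a median of 29.3% of the coding sequence was found at no other locus of the annotation. The members without unique sequence are shown by 2 stretches of 75 coding bases, each beside its nearest match at a pseudogene (mm10). They are printed 5′ to 3′ because they show what a read of this length could tell apart. Rps23 (chr13:90923122-90924942) and Rps6 (chr4:86836827-86857414) have a pseudogene with the same 75 bases, so no base is in capitals.
Rps23: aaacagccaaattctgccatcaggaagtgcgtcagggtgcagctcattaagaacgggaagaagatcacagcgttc
Rps23-ps1: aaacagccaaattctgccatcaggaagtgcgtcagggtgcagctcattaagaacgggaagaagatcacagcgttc
Rps6: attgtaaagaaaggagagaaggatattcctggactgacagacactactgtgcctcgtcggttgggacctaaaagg
Rps6-ps4: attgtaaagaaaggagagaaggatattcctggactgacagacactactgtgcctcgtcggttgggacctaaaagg

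The same members had very different levels in the 2 experiments, and the difference was larger the less of the coding sequence is unique. Rps6, the ribosomal protein phosphorylated downstream of mTOR, had 35.9, 35.9 and 31.4 FPKM in unstimulated whole cells under triptolide, against 1.46, 1.88 and 2.10 FPKM in unstimulated cells under DRB. Rps23, a protein of the decoding centre, had 53.3, 53.6 and 50.2 FPKM under triptolide, against 2.83, 3.45 and 3.80 FPKM under DRB. Both have no unique stretch of 100 coding bases, and their libraries lay 19.0-fold and 15.6-fold apart in the mean.

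Of 81 members, 21 had a log2 difference of 2 or more between the experiments (triptolide minus DRB), and 1.49% of the 13331 entries compared did. The 25 members with under 1% unique sequence had a median of 34.5 FPKM under triptolide and 5.89 FPKM under DRB, a median log2 difference of 2.67, and in all 25 the triptolide libraries lay above the DRB libraries, as they did in 17.5% of entries. Over all 81 members 44 were higher and 18 lower under triptolide without overlap, against 17.5% and 52.8% of entries. The 30 members with 1 to 50% unique sequence had a median log2 difference of 0.50. The 23 members with 50% or more had one of -0.21, near the median of -0.27 over all entries. Across the 78 members with both values, Spearman's rho between the unique share and the log2 difference was -0.83, and between the unique share and FPKM it was 0.42 under triptolide and 0.71 under DRB. This is a description across genes that share libraries and pseudogene families, with no test. Inhibitor, length of treatment and set of libraries differ together between the experiments and cannot be told apart.

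**Figure D1:**
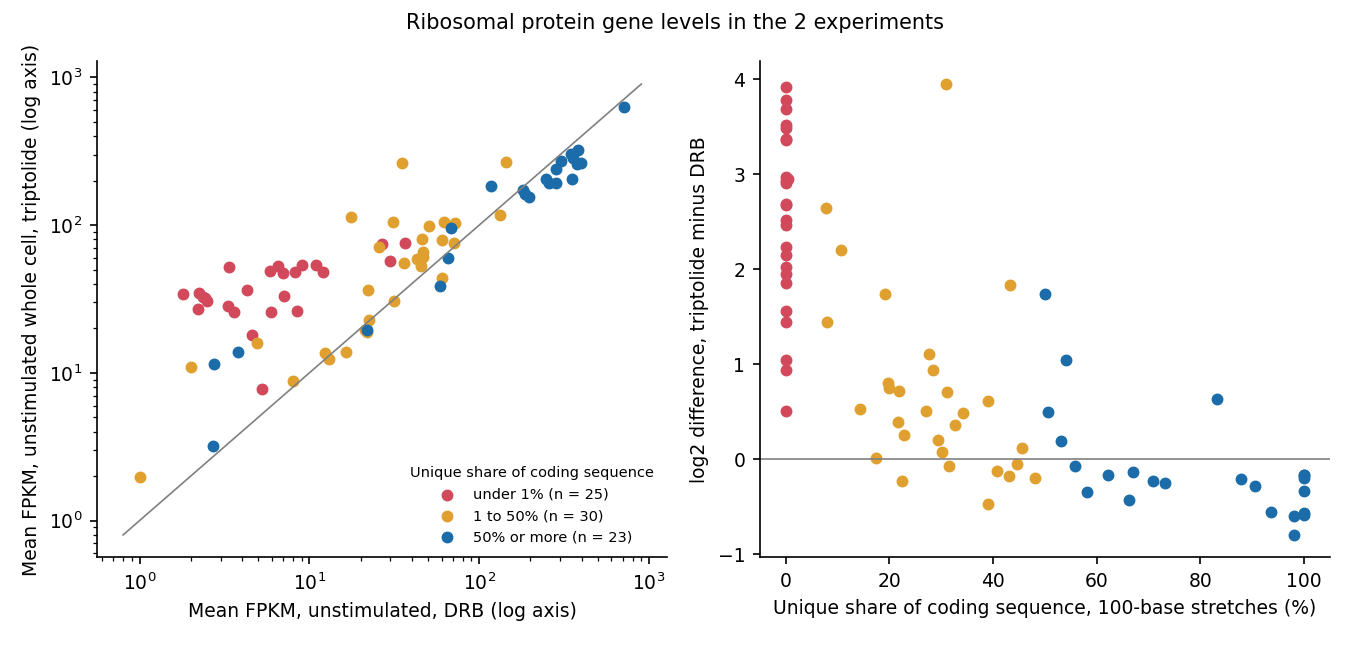
Left, mean FPKM of 78 ribosomal protein genes in unstimulated whole cells under triptolide against that in unstimulated cells under DRB (n = 3 libraries each, both axes log, the line marks equal levels). Right, the log2 difference of triptolide minus DRB against the share of coding sequence in stretches of 100 bases found at no other locus. All 25 members under 1% unique lie above the line, at log2 differences of 0.51 to 3.92, and the 23 at 50% or more lie at -0.80 to 1.74, with Rps18 and Rpl26 highest among them.

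Rps2, a protein of the mRNA channel with 71 other loci sharing its sequence, had a log2 difference of 3.95 as a mean of logs and a 7.40-fold ratio of means. It had 339, 148 and 297 FPKM in unstimulated whole cells numbered 1, 2 and 3 under triptolide. Unstimulated cells under DRB had 46.2, 0.973 and 58.8 FPKM in the same order. The low DRB library numbered 2 enlarged the difference of 3.95, but all 3 triptolide libraries lay above all 3 DRB libraries. The gene stood apart by number in every group. Under DRB its FPKM was 41.5 to 46.2 in the 3 libraries numbered 1, 0.887 to 1.07 in those numbered 2 and 52.9 to 71.4 in those numbered 3. Under triptolide the 6 libraries numbered 2 were again the lowest, at 100.1 to 148 FPKM, beside 274 to 339 FPKM in those numbered 1 and 242 to 297 FPKM in those numbered 3. Within a number, treatments and fractions lay close together.

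Further members kept a level by number. Rpl35a was high in number 2 in both experiments, with 20.9 to 35.4 FPKM under triptolide and 11.3 to 13.2 FPKM under DRB, while numbers 1 and 3 had 4.80 to 6.89 FPKM under triptolide and 1.07 to 1.50 FPKM under DRB. The merged entry of Rpl26, a protein at the exit of the ribosomal tunnel that is also known to bind p53 mRNA, had 23.2 to 29.1 FPKM in number 3 under triptolide and 1.80 to 2.99 FPKM in numbers 1 and 2. Under DRB its 9 libraries spanned only 2.48 to 3.44 FPKM. Rpsa, which is also known as a laminin receptor, had 50.8 to 61.9 FPKM in number 3 under DRB and 172 to 189.7 FPKM in numbers 1 and 2.

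In all, 5 of 81 members differed by a log2 range of 1 or more between numbers under DRB, namely Rps2, Rpl35a, Rpsa, Rpl21 and Rps19, against 2.33% of entries. Under triptolide 3 did, namely Rpl26, Rpl35a and Rps2, against 0.915% of entries. The median range of members was 0.19 under DRB and 0.15 under triptolide, as was that of all entries, 0.19 and 0.15. These members were chosen after their values were seen. In the labels, numbers 1, 2 and 3 carry the codes N7, N8 and N10 under DRB, and S1, S2 and S4 under triptolide. The labels do not say what a number or code stands for, nor whether a number marks the same culture in both experiments. What sets these levels was not tested.

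**Figure D2:**
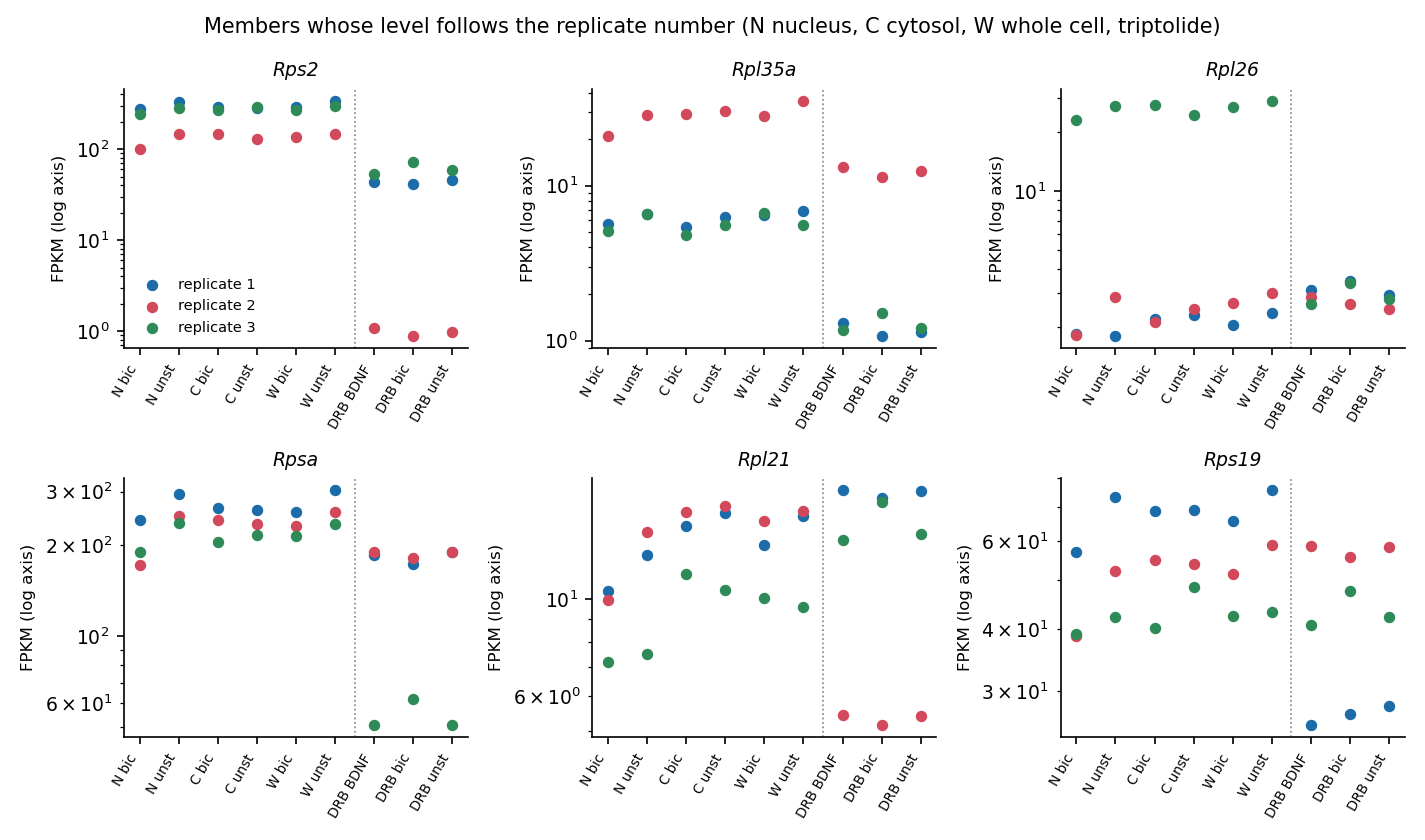
FPKM (log axis) of 6 ribosomal protein genes in each of the 27 libraries, by group and coloured by replicate number. Rps2 is lowest in number 2 in all 9 groups, Rpl35a is highest in number 2 in all 9 groups, and Rpl26 is high in number 3 under triptolide alone.

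Nuclear and cytosolic libraries of unstimulated cells held ribosomal protein mRNA at nearly the same relative level. The summed share was 1.92% ± 0.116 of FPKM in nuclei and 1.78% ± 0.0813 in cytosol (SD, n = 3 each), and the median log2 difference of the 81 members, nucleus minus cytosol, was -0.02, beside 0.06 over all 14205 tested entries. With limma over all 18 triptolide libraries and an adjusted p under 0.05, 9 of 81 members were called. Of these 6 were higher in nuclei and 3 lower, against 39% and 28% of entries. The log2 differences of members ranged from -0.33 to 0.41, and the largest difference of any member between nuclei and cytosol was 1.33-fold.

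Rpl3, a core protein of the peptidyl transferase centre, had 10.5, 10.9 and 14.0 FPKM in unstimulated nuclei, against 7.64, 9.79 and 8.72 FPKM in unstimulated cytosol, and rose by 0.41 ± 0.13 on the log2 scale (± SE; limma adjusted p = 0.0113). Rpl10a rose by 0.31 ± 0.08 (limma adjusted p = 0.00187), with 53.5 ± 1.72 FPKM in nuclei and 43.0 ± 1.42 FPKM in cytosol (SD, n = 3 each). The other 4 higher in nuclei were Rpl23a (0.25), Rps15a (0.19), Rpl41 (0.18) and Rpl39 (0.17). On the lower side Rps27l had 16.2, 17.3 and 14.9 FPKM in nuclei, against 21.8, 20.1 and 19.4 FPKM in cytosol, and fell by 0.33 ± 0.10 (limma adjusted p = 0.0104). Its libraries did not overlap, while those of its paralogue Rps27 did, at 27.9 ± 1.37 FPKM in nuclei and 25.7 ± 1.50 FPKM in cytosol (log2 difference 0.12, limma adjusted p = 0.198). The other lower members were Rpl15 (-0.29) and Rpl7 (-0.17).

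These directions depend on the scale. Median-ratio scaling moves the median of all entries to -0.25 and that of members to -0.36, puts 80 of 81 members below 0, and then calls 68 members lower and none higher, against 50.2% and 26.6% of entries. Quantile normalization calls 26 higher and 7 lower, against 27.8% and 41.1% of entries. Of the 9 members named, Rpl23a, Rpl10a, Rps15a, Rpl41 and Rpl39 turn negative under median-ratio scaling and Rpl7 turns positive under quantile normalization. Rps27l, Rpl15 and Rpl3 kept their sign in every setting. With the replicate number as a block, 8 members were higher and 11 lower, against 42.8% and 33.1% of entries. Without unstimulated cytosol replicate 3, 4 members were higher and 9 lower.

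With bicuculline the members lay lower in nuclei than in cytosol. Their summed share was 1.64% ± 0.114 in bicuculline nuclei and 1.80% ± 0.105 in bicuculline cytosol (SD, n = 3 each), and 79 of the 81 log2 differences were below 0 (66 with quantile normalization, 73 after rescaling to TPM), with a median of -0.25, beside -0.04 over all entries. By limma 53 members were lower and none higher, where 31.9% of entries were lower and 31.3% higher. In 50 members the 3 bicuculline nuclei lay below the 3 bicuculline cytosol libraries, as in 33.1% of entries. With the block 63 were lower, against 38.8% of entries. The lower ones included 21 of 32 members named for the small and 32 of 49 named for the large subunit. Entries whose mean log2 level lay within the members' quartiles behaved alike, with a median of -0.26 over 2468 such entries.

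Among called members with libraries that did not overlap, the 6 largest falls in bicuculline nuclei relative to bicuculline cytosol were those of Rps27l, Rpl12, Rps12, Rpl28, Rpl32 and Rps13. Rps27l had 15.9, 12.1 and 12.7 FPKM in bicuculline nuclei, against 22.4, 20.9 and 17.4 FPKM in bicuculline cytosol, and fell by 0.56 ± 0.10 on the log2 scale (limma adjusted p = 0.000232). Rpl12, a protein at the base of the stalk, had 37.2, 30.9 and 33.3 FPKM in nuclei, against 49.5, 53.3 and 43.8 FPKM in cytosol, and fell by 0.53 ± 0.09 (limma adjusted p = 0.000132). Rpl32 had 193 ± 14.9 FPKM in nuclei and 266 ± 17.4 FPKM in cytosol, and fell by 0.46 (limma adjusted p = 0.000287). Rpl21 differed by -0.58 but was not called (limma adjusted p = 0.0572). Rpl3 stood at 11.1 ± 1.20 FPKM in nuclei and 9.24 ± 1.97 FPKM in cytosol (log2 difference 0.27, limma adjusted p = 0.0876).

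The number of calls again rested on the scale. It was 19 lower and 2 higher after rescaling to TPM, against 21.3% and 36.1% of entries. It was 19 lower and 3 higher after quantile normalization, against 36.3% and 23.8% of entries, where the median of members was -0.10 and that of all entries -0.11. Without bicuculline nucleus replicate 2 it was 35.

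Set against unstimulated nuclei, all 81 tested members had a log2 difference below 0 in bicuculline nuclei, also under each other scaling. The median was -0.25, beside -0.02 over all entries and 0.01 over the 2439 entries whose mean log2 level lay within the members' quartiles. By limma 9 members were lower and none higher, against 0.824% and 0.986% of entries. A further count, of members whose 3 bicuculline nuclei all lay below the 3 unstimulated nuclei, was 48 of 81, against 8.26% of entries. In the libraries numbered 1, 2 and 3 taken as pairs, 75, 81 and 77 of 81 members were lower with bicuculline, and 72 were lower in every pair. Of all entries 50%, 45.3% and 57.5% were lower in these pairs, and 18% in every pair. The numbers pair the libraries of an experiment, and with the number as a block 57 members were lower and none higher, against 5.39% of entries lower, the 9 among them.

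The 9 members came from both subunits and from high and low levels. Rplp1 had 506, 461 and 496 FPKM in bicuculline nuclei, against 631, 677 and 566 FPKM in unstimulated nuclei, and fell by 0.35 ± 0.08 on the log2 scale (± SE; limma adjusted p = 0.0413). Rpl41 had 325, 307 and 335 FPKM in bicuculline nuclei, against 427, 409 and 394 FPKM in unstimulated nuclei, and fell by 0.35 ± 0.06 (limma adjusted p = 0.0161). Rpl12 had the largest fall of the 9, 0.43 ± 0.09 (± SE), with 33.8 ± 3.19 FPKM in bicuculline nuclei and 45.6 ± 4.58 FPKM in unstimulated nuclei (SD, n = 3 each, limma adjusted p = 0.0308). In all 9 the libraries of the nuclei did not overlap.

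Among the remaining 6, Rps20 fell by 0.38, Rps14 by 0.31, Rpl39 by 0.30, Rpl9 by 0.30, Rps15a by 0.27 and Rps28 by 0.26. Rps14 and Rps28 sit on the small subunit near the mRNA exit, and Rpl39 lines the tunnel through which the new protein leaves. Of these genes Rpl39, Rpl9, Rps15a and Rps28 lay between 15.2 and 17.0 FPKM (Rps15a) and 145 and 159 FPKM (Rpl39) in bicuculline nuclei, against 19.3 to 19.4 FPKM for Rps15a and 179 to 193 FPKM for Rpl39 in unstimulated nuclei. The calls were close to the threshold, and leaving out any 1 of the 6 nuclear libraries left 0 to 5 called members. There were 0, 1 and 4 without unstimulated nucleus replicate 1, 2 and 3, and 5, 5 and 2 without bicuculline nucleus replicate 1, 2 and 3. The median of members stayed between -0.29 and -0.21 in these 6 fits.

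**Figure D3:**
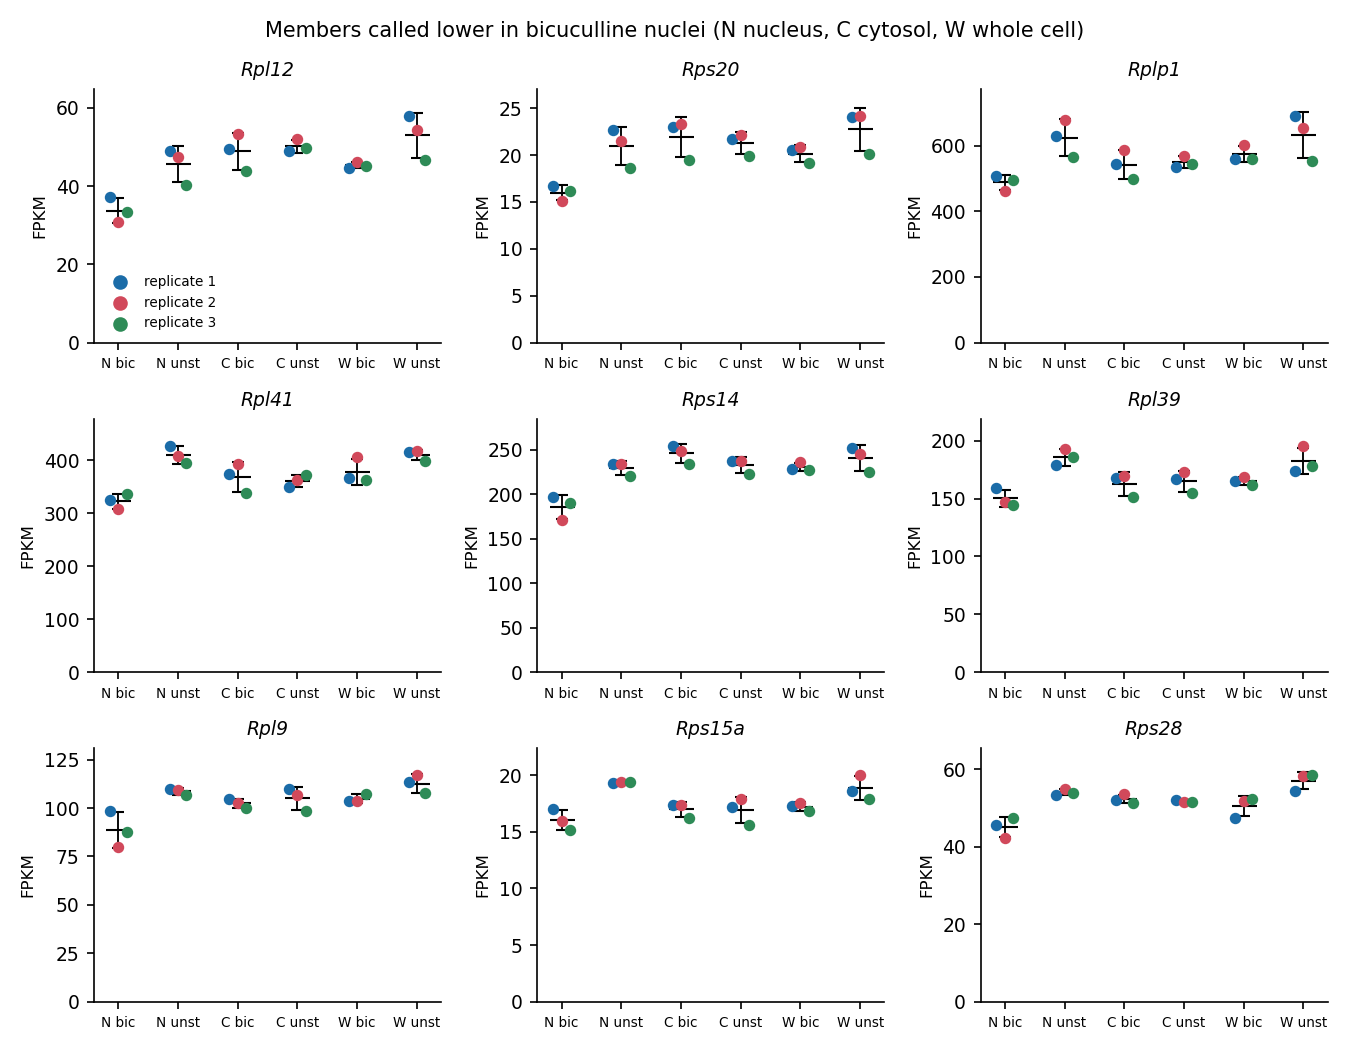
FPKM of the 9 ribosomal protein genes called lower in bicuculline nuclei, in the 18 triptolide libraries. Points are libraries coloured by replicate number, and bars give mean and SD (n = 3). In each gene the bicuculline nuclei lie below the unstimulated nuclei, and the bicuculline and unstimulated cytosol overlap.

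Larger differences were not always called. Rpl29 (-0.45, limma adjusted p = 0.0952), a low entry at 1.37 ± 0.144 FPKM in bicuculline nuclei and 2.08 ± 0.381 FPKM in unstimulated nuclei (SD, n = 3 each), passed only with the block. Rpsa had 241, 171 and 189 FPKM in bicuculline nuclei, against 295, 248 and 235.5 FPKM in unstimulated nuclei (log2 difference -0.38, limma adjusted p = 0.153). Its bicuculline library numbered 1 lay above the unstimulated library numbered 3, and with the block its adjusted p was 0.00144. Rplp0 (-0.27), Rplp2 (-0.29), Rpl13a (-0.29), Rps27 (-0.24) and Rpl11 (-0.18), which with Rpl5 binds the p53 regulator Mdm2, passed only with the block. The same held for Rps19 (-0.30), Rps27l (-0.24), Rpl22 (-0.18) and Rpl36al (-0.18). Rps6 (-0.08), Rpl5 (-0.04), Rpl3 (-0.08), Rps3 (-0.15), Rps4x (-0.15), Rpl22l1 (-0.14), Rpl36a (-0.07), Rps4l (-0.07) and Rpl10 (-0.06) passed in neither fit.

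In cytosol no member passed the threshold. In bicuculline cytosol against unstimulated cytosol the median log2 difference of members was 0.01, beside 0.08 over all entries, their range was -0.16 to 0.10, and limma called 0 of 81 members, against 3.18% of entries higher and 0.0915% lower. With the block it also called 0, against 15.3% of entries. At an unadjusted p under 0.05 there were 0 higher and 0 lower, against 18.5% and 1.01% of entries. Median-ratio scaling moved the median of members to -0.10 and that of all entries to -0.014, with all 81 members below 0, so the sign of the members in cytosol depends on the scale. Rplp1 had 543, 586 and 498 FPKM in bicuculline cytosol, against 534, 570 and 545 FPKM in unstimulated cytosol, and the groups overlapped. In whole cells the median was -0.09, beside 0.03 over all entries, and 77 of 81 differences were below 0. Limma called 0 members, against 0.0141% of entries higher and 0.0211% lower, with 5 lower and 0 higher at an unadjusted p under 0.05, against 2.14% and 8.88% of entries. In 8 members the bicuculline libraries lay below the unstimulated ones, against 4.24% of entries. With the block 1 member was lower, against 0.514% of entries. This was Rps28, at 50.6 ± 2.63 FPKM in bicuculline whole cells and 57.1 ± 2.26 FPKM in unstimulated whole cells (log2 difference -0.18, blocked limma adjusted p = 0.0477). The whole-cell median differed between the numbers, at -0.14, -0.12 and -0.01 in numbers 1, 2 and 3.

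The difference between the responses of nucleus and cytosol was tested as an interaction. All 81 estimates were below 0, with a median of -0.24, beside -0.11 over all entries, where 74.3% were below 0. Limma called 0 members, against 0.0845% of entries higher and 0.472% lower, and 34 were lower and 0 higher at an unadjusted p under 0.05, against 13.3% and 3.06% of entries. With median-ratio scaling the median of members was -0.10, beside 0.0091 over all entries, and 69 of 81 estimates were below 0. With quantile normalization 77 were. With the replicate number as a block it called 30 members, all lower, against 6.92% of entries. Of these 30 the 6 with the largest estimates were Rps12 (-0.44), Rps20 (-0.41), Rpl37a (-0.40), Rpl12 (-0.39), Rps14 (-0.38) and Rpsa (-0.38). Rpl29 (-0.45) and Rpl34 (-0.39) lay in the same range and passed in neither fit. The comparisons with bicuculline nuclei share those 3 libraries, so the difference from cytosol, the difference from unstimulated nuclei and the interaction are not independent of each other.

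**Figure D4:**
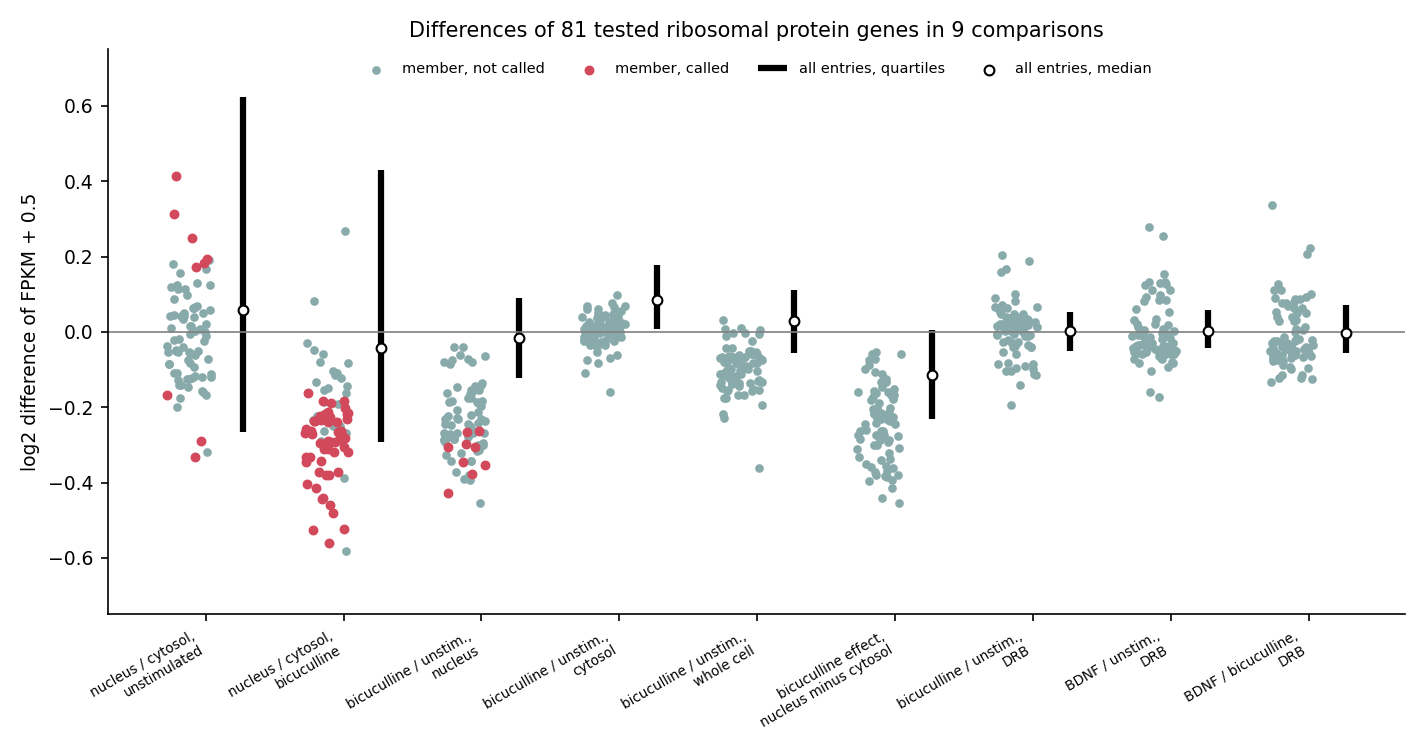
Log2 differences of FPKM + 0.5 for 81 tested ribosomal protein genes in 9 comparisons, with members called by limma (adjusted p under 0.05, no block) in red. Bars give the quartiles and open points the median of all tested entries. Members lie below 0 in bicuculline nuclei against unstimulated nuclei, and at -0.16 to 0.10 in bicuculline against unstimulated cytosol, where their sign depends on the scale.

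Other measures of the same nuclei are set beside the nuclear difference, and most of them overlapped between the groups. Bicuculline nucleus replicate 2 had the lowest summed share of ribosomal protein genes, 1.55%, and the highest share of nuclear noncoding RNAs, 0.557%, where the other bicuculline nuclei had 1.77% and 1.61% with 0.299% and 0.288%. The unstimulated nuclei had 1.79 to 2.01% with 0.348 to 0.372%. The 8 neuronal markers summed to 1256 to 1468 FPKM in bicuculline nuclei and 1199.6 to 1258 FPKM in unstimulated nuclei. The 6 astrocyte markers summed to 619.6 to 746 FPKM in bicuculline nuclei and 685 to 821 FPKM in unstimulated nuclei. The 6 oligodendrocyte markers summed to 45.0 to 54.2 FPKM in bicuculline nuclei and 47.8 to 58.5 FPKM in unstimulated nuclei, and the 6 microglial markers to 2.98 to 8.22 FPKM and 3.22 to 7.74 FPKM in the same groups. Mitochondrially encoded RNA made up 10.4% ± 1.18 in bicuculline nuclei and 11.5% ± 1.04 in unstimulated nuclei (SD, n = 3 each). The part of these in the result was not tested. Without bicuculline nucleus replicate 2, 5 members were called and all were lower. After leaving out the mitochondrially encoded entries the median was -0.24 and 16 were called, all lower, against 1.05% of entries, an alternative chosen after seeing the data.

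**Figure D5:**
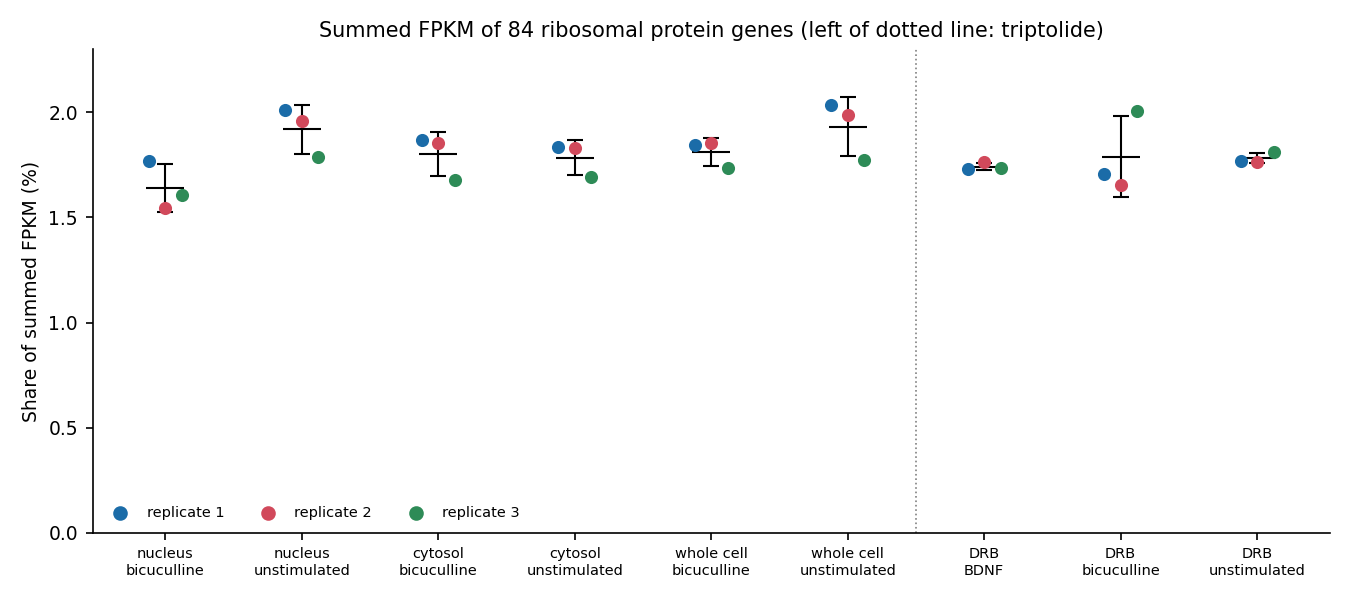
Share of summed FPKM held by the 84 ribosomal protein genes in each library, in percent, by group. Points are coloured by replicate number, and bars give mean and SD (n = 3). The 3 bicuculline nuclei lie at 1.55 to 1.77%, below the 3 unstimulated nuclei at 1.79 to 2.01%.

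The nuclear difference was of like size across members that differ in sequence and gene structure. The median log2 difference between bicuculline and unstimulated nuclei was -0.23 for the 25 members with under 1% unique coding sequence, -0.26 for the 30 with 1 to 50% and -0.27 for the 23 with 50% or more. It was -0.27 for the 29 members that hold 1 or more of 56 annotated small nucleolar RNAs and -0.25 for the 50 tested members that hold none. Whether these medians differ was not tested.

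Transcript starts were compared in the same way. RefSeq (GRCm38.p6) gave 75 start windows for 63 members. A run of 8 or more pyrimidines (C or T, on the strand of the gene) within 5 bases of the start was found in 25 of them, 33.3%, and in 9.72% of all 32851 windows. A match describes the annotated sequence, and the start used in these cells was not measured. Windows of 30 bases around the start, with 12 before it and 18 from it on, are shown for members described above, with the longest pyrimidine run near the start in capitals.
Rpl15: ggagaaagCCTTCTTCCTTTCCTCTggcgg
Rps6: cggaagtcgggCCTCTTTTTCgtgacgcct
Rps15a: tctttctgccaTCTTCCCTCgccggtgagt
Rpl12: ggagcaggatccgTCTTTTCggctttcggc
Rpl41: acgggccggCTCggaagtgacgacaccgag
Rpl39: aagctccgCCTCTagcgacttcttctaatc
Rps28: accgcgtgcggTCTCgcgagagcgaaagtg
Of these Rpl15, Rps6 and Rps15a hold a run of at least 8, and the other 4 do not in this window. The median log2 difference between bicuculline and unstimulated nuclei was -0.27 for the 25 tested members with such a run and -0.25 for the 35 without.

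Genes around the ribosome were set beside its proteins. Fau (-0.26), Rps3a1 (-0.19), Rack1 (-0.10) and Rpl7l1 (0.02), which the symbol rule does not take in, did not pass between bicuculline and unstimulated nuclei (log2 differences, limma adjusted p = 0.19, 0.556, 0.524 and 0.914). With the replicate number as a block Fau and Rps3a1 passed, both lower (blocked limma adjusted p = 0.0359 and 0.0276). Calls in the lists that follow stand against 0.824% of entries lower and 0.986% higher. Among 75 nuclear-encoded oxidative phosphorylation genes 8 were lower and none higher, with a median of -0.14. Among 77 mitochondrial ribosomal protein genes 4 were lower and none higher, with a median of -0.07. Of 18 further mRNAs known for a TOP motif 1 was lower, with a median of -0.06. None of 9 elongation factors (median -0.03), 40 initiation factors (0.01) or 48 ribosome assembly factors (0.11) was called. Of 9 immediate early genes, the early transcriptional targets of neuronal activity, 2 were higher and their median was 0.38.

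Under DRB neither stimulus moved a ribosomal protein gene past the threshold. BDNF against unstimulated cells gave a median log2 difference of -0.03 and a range of -0.17 to 0.28, beside a median of 0.003 over all 13321 entries, and limma called 0 of 81 members, against 0.638% of entries. With the block it also called 0, against 1.49% of entries. Bicuculline against unstimulated cells gave a median of 0.01 and a range of -0.19 to 0.21, with 0 called against 0.308% of entries, and 0 with the block against 0.571%. BDNF against bicuculline gave a median of -0.04 and 0 called against 0.128% of entries, and 0 with the block against 0.54%. In each of the 3 comparisons 2 members were higher and 0 lower at an unadjusted p under 0.05. Of entries 3.34% were higher and 0.128% lower by that rule for BDNF against unstimulated cells, 1.79% and 0.21% for bicuculline against unstimulated cells, and 2.03% and 0.571% for BDNF against bicuculline. In the same libraries 10 of 11 immediate early genes were higher with BDNF and 10 of 11 with bicuculline, with medians of 3.38 and 2.21.

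The member nearest to a call under DRB was Rpl10, a late-joining protein of the large subunit. It had 5.17, 5.83 and 5.98 FPKM with BDNF, against 4.18, 4.34 and 4.60 FPKM with bicuculline and 4.38, 4.87 and 4.48 FPKM in unstimulated cells. The BDNF libraries lay above both other groups (log2 difference 0.34 ± 0.08, limma adjusted p = 0.512 against bicuculline, and 0.28 ± 0.08, limma adjusted p = 0.525 against unstimulated cells). No 100-base stretch of its coding sequence is unique. Bicuculline replicate 3 stood apart, with a summed share of 2.01% for the class, beside 1.65 to 1.71% in the other 2 bicuculline libraries, 1.73 to 1.76% with BDNF and 1.77 to 1.81% in unstimulated cells. Rplp0 had 468 FPKM in that library, beside 359.5 and 340.1 FPKM in the other bicuculline libraries and 370 to 394 FPKM in unstimulated cells. With numbers as pairs, the median of members for bicuculline against unstimulated cells was -0.04, -0.11 and 0.18 in numbers 1, 2 and 3.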

How the data were processed

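Values are FPKM computed by the authors, 1 per gene entry and library, on FASTDB gene models. Tools listed in the submitters' processing notes are STAR 2.4.0, SAMtools, Picard and FastQC, and the build is mm10. Per the labels' protocols, libraries came from a stranded mRNA kit. The sources used here do not give the counting program, the read length or what was done with reads that map to several places, so levels of members with pseudogenes are uncertain.

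Values were analysed as log2(FPKM + 0.5), on which folds of low genes are understated. Entries that reached 1 FPKM in 3 or more libraries of an experiment were tested with limma 3.58.1 (R 4.3.3, trend and robust), 1 mean per group, 18 triptolide or 9 DRB libraries per fit, Benjamini-Hochberg adjustment over all entries, called under 0.05. The 9 comparisons are not adjusted for each other. The code was tested on simulated data. Same-numbered libraries deviated together (correlation 0.256 to 0.692 in 45 triptolide pairs and 0.463 to 0.902 in 9 DRB pairs, pairing taken from the titles), so a fit with the number as a block is given where it changes a result.

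Sharing was counted over coding stretches of 50 and 100 bases against GENCODE M21 transcripts. Depth came from 2177 single-exon entries, with 60.2 to 73.5% of low values within 0.1 of a step. Members named in a comparison are the called ones where 12 or fewer, otherwise the 6 largest called changes each way with mean FPKM of at least 5 and no overlap, and a set list of members and paralogues. Members and lists were chosen with earlier results of these data known. Tables and figures were made with matplotlib 3.10.9, numpy 2.4.6 and pandas 2.3.3 under Python 3.11.15. Some results are not reported here.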

Additional observations from a re-analysis of the deposited data

Results flagged for a closer look

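The bicuculline effect on ribosomal protein genes differed between nucleus and cytosol for 30 of 81 members. This was by an interaction test in limma with the replicate number as a block. In all 30 the log2 response was lower in the nucleus, as it was by this rule in 6.92% of entries. Without the block 0 members passed, so the difference rests on pairing the libraries by number. The estimates were the same in both fits, with a median of -0.24 on the log2 scale beside -0.11 over all entries. With median-ratio scaling the median was -0.10, beside 0.0091 over all entries.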

How the results depend on the processing

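The counts of members called moved by more than 1.5 times under these settings. For nucleus against cytosol in unstimulated cells, 9 became 68 with median-ratio scaling, 33 with quantile normalization, 19 with the replicate block and 18 without the mitochondrially encoded entries, a setting chosen after seeing the data. With bicuculline, 53 became 22 with quantile normalization, 21 after rescaling to TPM and 20 without the mitochondrial entries. For bicuculline against unstimulated nuclei, 9 became 4 with median-ratio scaling, 29 with quantile normalization, 57 with the replicate block and 16 without the mitochondrial entries, always lower. For whole cells 0 became 1 with the block, and for the interaction 0 became 2 with quantile normalization and 30 with the block. The other 2 pseudocounts, no filter on low values and no trend or robust moderation moved none of the 9 counts by that much. The block changed no call in cytosol or under DRB. Leaving out 1 library gave 7 to 13 members for nucleus against cytosol in unstimulated cells, 35 to 58 with bicuculline, 0 to 5 for bicuculline nuclei, 0 to 2 for the interaction and 0 to 0 for the others.

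Between nucleus and cytosol without stimulation 36 of 81 members changed sign with median-ratio scaling and 28 with quantile normalization, and in bicuculline against unstimulated cytosol 49 and 30 did. None did in bicuculline against unstimulated nuclei. Among the members named, 12 values called in either of the settings changed sign, 11 of them in nucleus against cytosol without stimulation. With median-ratio scaling Rpl39 was at -0.18, Rpl41 at -0.17, Rps15a at -0.15, Rpl23a at -0.10, Rpl10a at -0.037, Rps3 at -0.29, Rplp0 at -0.34, Rpl13a at -0.29, Rpl22l1 at -0.30 and Rps27 at -0.23. With quantile normalization Rpl7 was at 0.047, and with bicuculline Rps3 was at 0.17. The cause was not tested. The median of members in bicuculline against unstimulated nuclei stayed between -0.29 and -0.21 in all settings.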
